A study of Mus musculus with 6 samples.

Results

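Proteases that cut the extracellular matrix and shed proteins from the cell surface were followed in cultured mouse pancreatic fibroblasts, together with their tissue inhibitors. The genes were taken by name, as every row of the count table whose symbol begins with Mmp, Timp, Adam, Adamts or Adamtsl followed by a number. This gave 46 of the 14831 rows, made up of 12 matrix metalloproteases (MMP), 3 tissue inhibitors of metalloproteases (TIMP), 13 ADAM genes, 14 ADAMTS genes and 4 ADAMTS-like (ADAMTSL) genes.

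The active proteases are zinc-dependent enzymes made as inactive precursors, and many are switched on when a proprotein convertase such as furin removes the propeptide. MMPs cut collagens, proteoglycans and other matrix proteins, membrane ADAMs release growth factors, cytokines and receptors from the cell surface, and secreted ADAMTS enzymes trim procollagens and large proteoglycans. TIMPs block the active site of MMPs and of some ADAM and ADAMTS enzymes, while ADAMTSL proteins have the ADAMTS binding modules but no protease domain and bind the fibrillin microfibrils of the matrix. In the pancreas, fibroblasts are a main source of these genes during scarring and around tumors.

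RNAseq was performed on 3 libraries labelled WT and 3 labelled KO, where KO stands for the genotype Gli2-/-;Gli3-/- and WT for cells that kept both genes. Both kinds of cell were immortalized fibroblast lines of mixed strain, grown out of the adult pancreas of mice with floxed Gli alleles. The established KO lines received adenoviruses carrying GFP and Cre, and the WT lines an adenovirus carrying GFP and a lentivirus carrying dsRed. Effects of these vectors cannot be told apart from those of the genotype. Each library came from its own confluent well in DMEM with calf serum, with no other cell type and no added ligand named in the labels, so that the spread between libraries is that between wells. How many lines the wells of a group represent was not given in the sources used here, and the comparison therefore sets 1 set of wells against another.

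Read depth was similar, with 31728420 to 33905521 counts per library under WT and 32781730 to 41035931 under KO. Gli2 and Gli3, the genes deleted according to the genotype label, had more counts in the libraries labelled KO. For its Gli2/Gli3 KO fibroblast lines the paper reports a check of the deletion by qPCR and western blot. It also reports that these lines did not respond to Hedgehog stimulation. Gli2 was at 809, 944 and 868 counts in WT-labelled libraries and 1932, 2316 and 1926 counts in KO-labelled libraries, and Gli3 at 392, 416 and 398 counts in WT-labelled libraries and 1434, 1637 and 1404 counts in KO-labelled libraries (log2 fold change 1.71 ± 0.05 SE, adjusted p = 2.10e-11). Counts over a whole gene do not show whether the reads lie in the deleted exons, so groups go by their labels here, and each direction below rests on those labels. Gli1, the transcription factor gene that rises when the Hedgehog pathway is on, had 40, 50 and 37 counts in WT-labelled libraries and 4, 10 and 13 counts in KO-labelled libraries. Its log2 fold change was -2.40 ± 0.31 SE (adjusted p = 2.30e-05). The paper, in contrast, reports that its Gli2/Gli3 KO fibroblasts keep some baseline Gli1 expression. Of 11 fibroblast markers 9 were found by symbol. Their summed level was 44824 to 47238 CPM (counts scaled to a common library size) under WT and 36791 to 38540 CPM under KO. Of 8 tested, 5 were called (62.5%, beside 17.7% of all genes), 4 lower and 1 higher under KO. Dcn (log2 fold change -1.55), Col3a1 (-0.94), Pdgfra (-0.90) and Pdgfrb (-0.66) were lower, and S100a4 (1.67) was higher. Col1a1, the highest of the list, was not called (0.01). Thy1, too low to test, had at most 4 counts under WT and 9 to 19 under KO. None of 4 endothelial markers was found by symbol. Only 13666 of the 14831 rows carry a symbol, so a listed gene without a symbol would be missed. Summed levels of the other lists were 8.81 to 8.93 and 6.58 to 7.42 CPM for ductal epithelium (nearly all Sox9), 39.5 to 45.5 and 38.4 to 40.1 CPM for macrophages (nearly all Lyz2), 1.98 to 2.79 and 1.67 to 2.18 CPM for Schwann cells, 7.36 to 8.84 and 13.6 to 15.4 CPM for acinar cells (Cela1 alone) and 1815 to 1978 and 1872 to 1957 CPM for smooth muscle (nearly all Acta2), under WT and KO. Minor markers of these lists went the other way or moved where the sum did not. Cdh1 (log2 fold change 1.08 ± 0.27 SE, adjusted p = 0.0045) and Cnn1 (log2 fold change 0.72 ± 0.11 SE, adjusted p = 1.12e-04) were called higher under KO, and Krt8, too low to test, had 1, 0 and 2 counts in WT-labelled libraries and 7, 9 and 12 counts in KO-labelled libraries. All 4 mesothelial markers (Msln, Upk3b, Lrrn4 and Wt1) had risen under KO, with a summed level of 21.5 to 24.4 CPM under WT and 267.0 to 267.4 CPM under KO.

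A larger share of the protease and inhibitor genes than of all genes was called between the groups. Of the 46 genes, 44 had enough counts to be tested, and 20 of these were called, meaning an adjusted p under 0.05 (quasi-likelihood F test of edgeR, Benjamini-Hochberg adjusted over all 14289 genes tested) and a 1.5-fold or larger difference. This was 45.5% of those tested, where 17.7% of all genes tested were called. The set was chosen with earlier results of these data known, so the larger share describes the set and is not a test of it. In the libraries labelled KO 13 rose and 7 fell (29.5% and 15.9% of those tested), against 11.6% and 6.1% of all genes. Of all genes called 65.6% were higher, a lean like that of these 20. On the adjusted p alone 32 of the 44 passed (72.7%), beside 58.7% of all genes, with 21 higher and 11 lower beside 29.9% and 28.8%, and the CPM values of the groups did not overlap for 35 (79.5%), beside 64.2%. The median log2 fold change was 0.18 over the 44 and 0.00 over all genes, and the median size of the change was 0.55 on the log2 scale beside 0.22. Since these are bulk cultures, fewer cells of a type and less RNA per cell cannot be told apart, and the part of the higher mesothelial markers in these differences was not tested.

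Counts of calls varied between subfamilies, a difference that was not tested. Of all genes tested 17.7% were called, 11.6% higher and 6.1% lower. ADAMTS genes had 8 of 13 tested called (61.5%), with 4 higher and 4 lower, and ADAM genes had 6 of 13 (46.2%), with 4 higher and 2 lower. ADAMTSL genes had 3 of 4 called (75.0%), all higher. Only 2 of 11 MMP genes were called (18.2%, near the share of all genes), 1 in each direction, and 1 of 3 TIMP genes (33.3%), which was higher. Only Mmp27 and Adamts16 were too low to test. Mmp27 had 5, 7 and 6 counts in WT-labelled libraries and 16, 18 and 1 counts in KO-labelled libraries, and Adamts16 had 3, 10 and 6 counts in WT-labelled libraries and 13, 14 and 7 counts in KO-labelled libraries. Without the third KO library Mmp27 was tested and called, at a log2 fold change of 1.23.

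**Figure D1:**
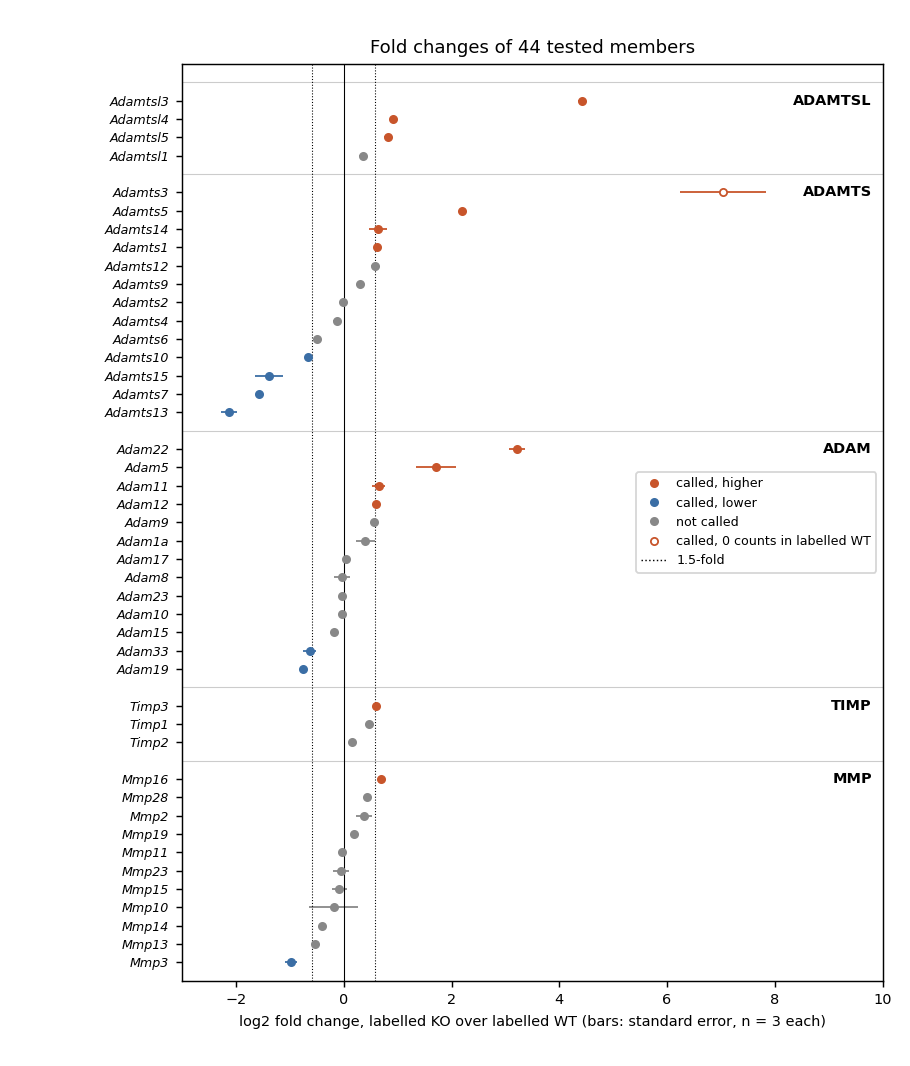
Log2 fold change (labelled KO over labelled WT, x axis) of each of the 44 tested genes, grouped by subfamily, with bars for the standard error (3 libraries per group) and dotted lines at 1.5-fold. Adamtsl3, Adam22 and Adamts5 lie farthest to the right among the genes with counts in every library, Adamts13, Adamts7 and Adamts15 lie farthest to the left. Of the MMP and TIMP genes, Mmp3 lies beyond the lower line, Mmp16 and Timp3 lie beyond the upper line and the rest lie between the lines.

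Both abundant inhibitors, Timp2 and Timp3, exceeded every protease transcript of the set. Levels are compared between genes as CPM per kb of exon, the mean over the 3 libraries of each group. Timp2 was at 582 and 648 CPM per kb under WT and KO and Timp3 at 323 and 487. Mmp14, the highest protease under WT, was at 100.5 and 76.0 CPM per kb, and Adam9, the highest under KO, at 63.8 and 94.6. Next came Adamts2 (71.2 and 71.0), Adam10 (51.9 and 50.5) and Timp1 (40.3 and 55.5 CPM per kb). The lowest tested genes were Adam5, Adamts3 and Adamts15, of which Adam5 reached 0.184 CPM per kb in its highest library. The ranking within a subfamily was mostly clear of the spread between libraries, but Adamtsl3 moved from the lowest of the 4 ADAMTSL genes under WT to a level whose library range overlapped that of Adamtsl4, the highest under WT, in the KO libraries. Adamts5 lay below Adamts9 in every WT library and above it in every KO library on this scale.

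**Figure D2:**
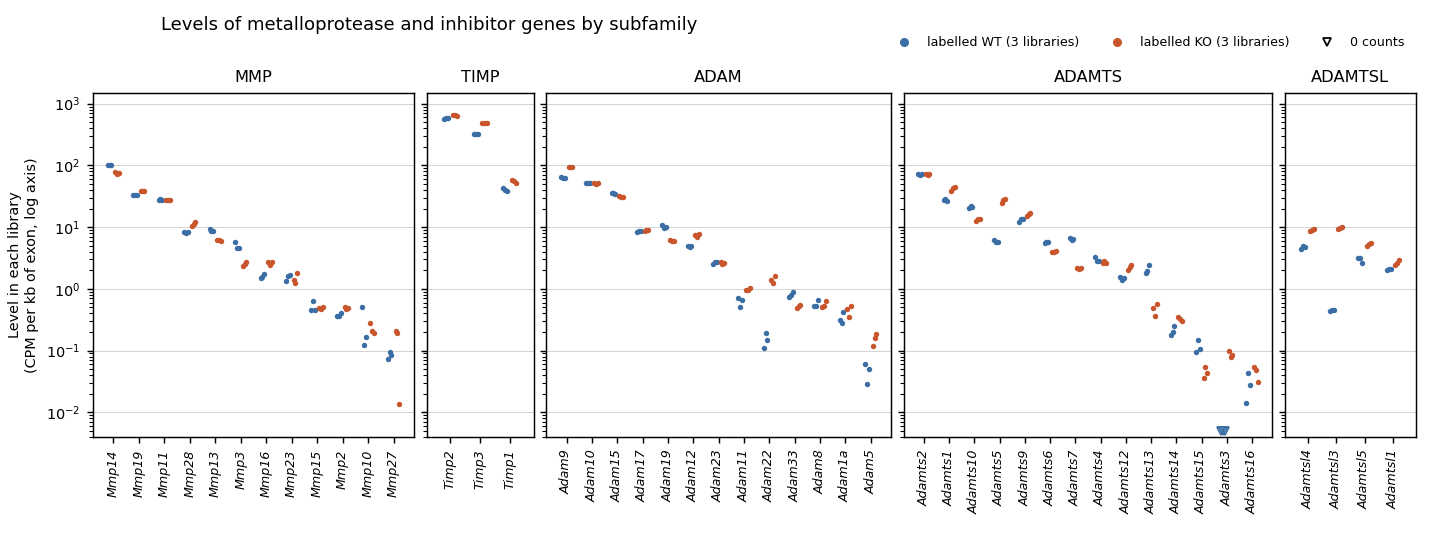
Level in each library (CPM per kb of exon, log axis) of all 46 genes by subfamily, with blue points for the 3 libraries labelled WT, red points for the 3 labelled KO and open triangles for 0 counts. Timp2 and Timp3 sit above every protease, and Adamtsl3, Adam22 and Adamts5 show the widest gaps between blue and red among the genes detected in every library.

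Mmp14 encodes the membrane-type collagenase that activates pro-MMP2. It was at 599, 594 and 604 CPM in WT-labelled libraries and at 463, 439.5 and 457 CPM in KO-labelled libraries. All of the libraries labelled KO were lower and the groups did not overlap, but the change was under 1.5-fold (log2 fold change -0.40 ± 0.03 SE, adjusted p = 1.24e-07). Mmp2, the gelatinase that it activates, is abundant in many fibroblasts but was low here, with 39, 41 and 44 counts in WT-labelled libraries and 61, 67 and 55 counts in KO-labelled libraries. Its groups did not overlap either, and its adjusted p of 0.0527 missed the threshold. Per kb of exon Mmp14 exceeded Mmp2 by 265 ± 14.8 times under WT and 154 ± 1.66 times under KO (mean ± SD, n = 3).

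Mmp16, another membrane-type MMP, was the only MMP called higher. It was at 12.9, 13.6 and 15.2 CPM in WT-labelled libraries and at 23.6, 20.8 and 23.5 CPM in KO-labelled libraries (log2 fold change 0.70 ± 0.07 SE, adjusted p = 3.29e-06), with every KO library above every WT library. When the change was tested against 1.5-fold itself rather than against 0, its adjusted p was 0.154. Mmp15, the second membrane-type MMP, was low and overlapped between groups, with 77, 113 and 77 counts in WT-labelled libraries and 93, 104 and 90 counts in KO-labelled libraries.

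Mmp13, Mmp3, Mmp10 and Mmp27 lie in this order on chromosome 9, within the cluster of secreted collagenase and stromelysin genes (GRCm38, chr9:7272514-7283331, chr9:7445822-7455975, chr9:7502352-7510240 and chr9:7571396-7581885). Mmp3, the stromelysin that degrades proteoglycans and activates other MMPs, fell from 10.2, 8.30 and 8.40 CPM in WT-labelled libraries to 4.26, 4.46 and 4.94 CPM in KO-labelled libraries (log2 fold change -0.98 ± 0.10 SE, adjusted p = 4.18e-06). It was the only MMP called lower. Mmp13, a fibrillar collagenase, was at 25.0, 23.0 and 23.2 CPM in WT-labelled libraries and at 16.5, 16.8 and 15.9 CPM in KO-labelled libraries. The KO libraries were again all lower, with a change short of 1.5-fold (log2 fold change -0.53 ± 0.05 SE, adjusted p = 2.78e-06). Mmp10, the second stromelysin, had 27, 7 and 9 counts in WT-labelled libraries and 17, 15 and 11 counts in KO-labelled libraries, and its groups overlapped. Its log2 fold change of -0.19 rested on the first WT library, without which it was 0.67 with an adjusted p of 0.162.

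The start sites of these neighbors share short sequences, and their promoters are shown because 3 genes of a single cluster can be set side by side. Windows of 300 bases (250 before and 50 after the start, RefSeq, GRCm38.p6, plus strand) cover chr9:7272264-7272563 for Mmp13, chr9:7445572-7445871 for Mmp3 and chr9:7502092-7502391 for Mmp10. Capitals mark the AP-1 motif TGAGTCA, or its reverse complement TGACTCA, and the TATA box TATAAA, which was searched on the gene's strand only.
Mmp13: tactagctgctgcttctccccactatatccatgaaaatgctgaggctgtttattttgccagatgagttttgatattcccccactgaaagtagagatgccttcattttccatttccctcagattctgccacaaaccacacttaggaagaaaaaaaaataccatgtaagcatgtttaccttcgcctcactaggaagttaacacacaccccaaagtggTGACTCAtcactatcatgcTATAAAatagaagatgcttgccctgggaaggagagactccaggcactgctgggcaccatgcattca
Mmp3: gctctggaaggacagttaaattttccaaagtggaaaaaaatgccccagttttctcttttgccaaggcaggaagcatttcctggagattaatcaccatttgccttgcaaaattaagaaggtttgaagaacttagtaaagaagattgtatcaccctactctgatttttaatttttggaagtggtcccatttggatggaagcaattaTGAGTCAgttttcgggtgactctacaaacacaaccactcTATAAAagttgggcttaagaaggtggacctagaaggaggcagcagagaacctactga
Mmp10: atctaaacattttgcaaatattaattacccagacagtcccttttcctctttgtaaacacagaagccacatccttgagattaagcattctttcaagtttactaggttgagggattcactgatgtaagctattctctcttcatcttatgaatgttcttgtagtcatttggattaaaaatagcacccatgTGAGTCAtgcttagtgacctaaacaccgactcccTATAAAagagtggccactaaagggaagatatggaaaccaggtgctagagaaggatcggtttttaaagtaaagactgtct
The AP-1 motif lay 35 bases before the start in Mmp13, 46 in Mmp3 and 63 in Mmp10, with the TATA box 16, 7 and 29 bases before it. Of all 32851 mouse windows of this length 5.20% held the AP-1 motif, 8.32% the TATA box and 0.624% both. Windows were at hand for 30 of the 46 genes, and these 3 MMP genes were the only ones with both motifs. Adam19 held the AP-1 motif and Adamts1 the TATA box. The GLI motif GACCACCCA, searched on both strands, was in 0.253% of all windows and in none of the 33 windows of these 30 genes. A motif this rare would be missing from most sets of 33 windows, so its absence says little about these genes. A match is a description of the letters and not a bound site, and 1 of the 3 genes (Mmp10) did not differ between the groups beyond its spread.

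Mmp11, Mmp19, Mmp28 and Mmp23 were not called. Mmp11 (stromelysin 3) was at 77.7, 78.4 and 77.0 CPM in WT-labelled libraries and at 77.7, 75.7 and 76.0 CPM in KO-labelled libraries, and the groups overlapped (adjusted p = 0.552). Mmp19, which cleaves basement membrane proteins, was at 119, 119 and 118 CPM in WT-labelled libraries and at 138, 135 and 135 CPM in KO-labelled libraries, a small shift with no overlap (log2 fold change 0.20 ± 0.03 SE, adjusted p = 7.56e-05). Mmp28 (epilysin) was at 32.3, 31.4 and 32.4 CPM in WT-labelled libraries and at 41.01, 43.0 and 46.3 CPM in KO-labelled libraries (log2 fold change 0.44 ± 0.05 SE, adjusted p = 5.95e-06). Both stayed under 1.5-fold. Exons of Mmp19 and Mmp28 overlap a gene on the other strand by 22.3% and 12.03% of their length, and whether reads were counted by strand was not given in the sources used here. Mmp23 had 98, 125 and 123 counts in WT-labelled libraries and 115, 122 and 140 counts in KO-labelled libraries, and its groups overlapped.

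Outside the named genes, 3 rows without a symbol carry the identifiers of Mmp9, Mmp24 and Adamtsl2. Mmp9, the second gelatinase, was barely detected, with 19, 18 and 18 counts in WT-labelled libraries and 8, 7 and 10 counts in KO-labelled libraries. Despite the low counts the KO libraries were all lower (log2 fold change -1.31 ± 0.30 SE, adjusted p = 0.00252). Adamtsl2, a microfibril-binding protein, rose, with 12, 8 and 12 counts in WT-labelled libraries and 45, 40 and 33 counts in KO-labelled libraries (log2 fold change 1.69 ± 0.26 SE, adjusted p = 1.19e-04). Mmp24, a membrane-type MMP, was too low to test, with 5, 4 and 8 counts in WT-labelled libraries and 10, 15 and 12 counts in KO-labelled libraries. Had they been counted, 22 genes would have been called.

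All 3 TIMP genes were higher in the libraries labelled KO. Timp3, the inhibitor that stays bound to the matrix and also blocks ADAM17 and aggrecan-cleaving ADAMTS enzymes, was at 2646, 2657 and 2598 CPM in WT-labelled libraries and at 3942, 3974 and 3987 CPM in KO-labelled libraries. The groups were far apart relative to their spread, and the change of 1.51-fold lay just over the limit (log2 fold change 0.59 ± 0.02 SE, adjusted p = 7.19e-10). Without the third WT library the log2 fold change was 0.58 and Timp3 was no longer called. Timp3 (chr10:86300372-86349506) lies within Syn3 on the other strand, and 21.3% of its exon length overlaps exons of Syn3, which had 274, 208 and 262 counts in WT-labelled libraries and 387, 267 and 264 counts in KO-labelled libraries. Timp1 was at 38.3, 35.2 and 33.8 CPM in WT-labelled libraries and at 51.8, 50.4 and 45.5 CPM in KO-labelled libraries (log2 fold change 0.46 ± 0.06 SE, adjusted p = 1.55e-05). Timp2, which also takes part in the activation of pro-MMP2 by MMP14, was at 2232, 2305 and 2259.7 CPM in WT-labelled libraries and at 2546, 2543 and 2488 CPM in KO-labelled libraries (log2 fold change 0.16 ± 0.03 SE, adjusted p = 2.21e-04). For both, every KO library exceeded every WT library, with changes short of 1.5-fold.

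Summed over the subfamily, TIMP transcripts were at 945 ± 10.9 CPM per kb under WT and 1191 ± 10.1 under KO, while MMP transcripts were at 188 ± 1.23 and 167 ± 2.93 (mean ± SD, n = 3). The ratio of TIMP to MMP transcripts was 4.96, 5.12 and 4.97 in WT-labelled libraries and 7.06, 7.30 and 6.998 in KO-labelled libraries, with no overlap. These sums rest on few genes: Mmp14 made up 53.3% of the MMP sum under WT and 45.4% under KO, and Timp2 and Timp3 together nearly all of the TIMP sum. The ADAM sum was 180.0 ± 2.15 and 205 ± 1.40 CPM per kb, the ADAMTS sum 157 ± 0.595 and 181 ± 7.71, and the ADAMTSL sum 10.2 ± 0.366 and 26.5 ± 1.32. All 46 genes took 0.824% of the scaled library size under WT and 1.02% under KO.

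**Figure D3:**
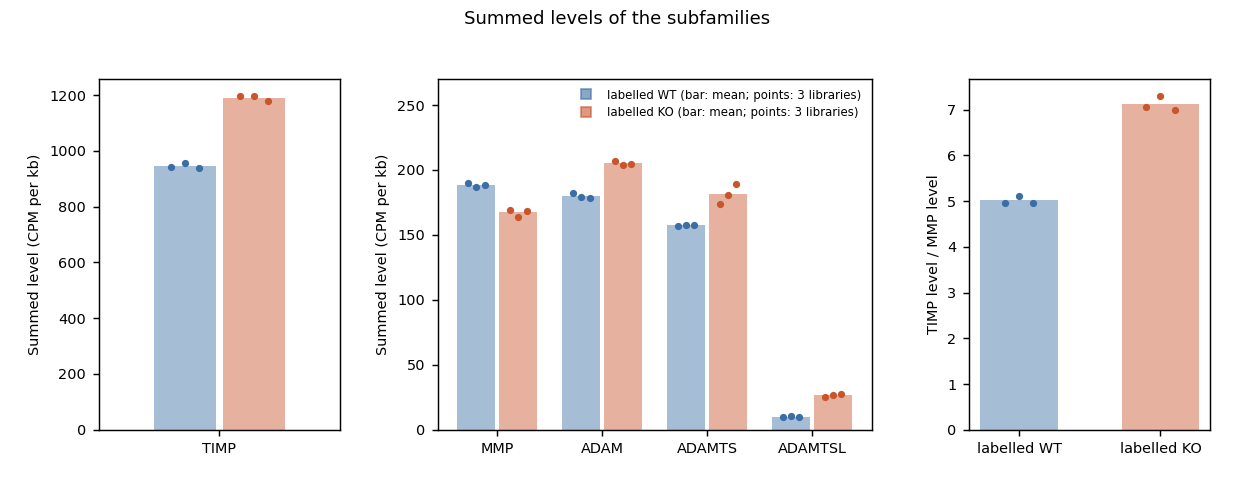
Summed level of each subfamily (CPM per kb of exon; TIMP at left on its own axis, MMP, ADAM, ADAMTS and ADAMTSL in the middle) and the ratio of the TIMP to the MMP sum (right), with bars for the mean and points for the 3 libraries of each group. The MMP sum is lower and the other sums are higher under KO, and the ratio lies between 4.96 and 5.12 under WT and between 6.998 and 7.30 under KO.

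The main sheddases, ADAM10 and ADAM17, were not among the genes called. Adam10, which releases the Notch ectodomain and cadherins, was at 254, 254 and 257 CPM in WT-labelled libraries and at 251, 244 and 250.4 CPM in KO-labelled libraries (adjusted p = 0.24). Adam17, which releases TNF and EGF receptor ligands, was at 58.6, 62.0 and 62.0 CPM in WT-labelled libraries and at 61.1, 63.4 and 63.7 CPM in KO-labelled libraries (adjusted p = 0.339). Adam9, a sheddase that was the most abundant ADAM, was at 271, 259.9 and 257 CPM in WT-labelled libraries and at 393, 391 and 383 CPM in KO-labelled libraries. The groups were widely separated (log2 fold change 0.57 ± 0.03 SE, adjusted p = 6.69e-09), but the 1.48-fold change lay just under the limit, which it passed without the first WT library (log2 fold change 0.59). Its share of the summed ADAM level was 35.5% under WT and 46.1% under KO. Adam15 was at 219, 222 and 211 CPM in WT-labelled libraries and at 193, 192 and 190.5 CPM in KO-labelled libraries (log2 fold change -0.18 ± 0.03 SE, adjusted p = 2.01e-04), with no overlap and a change under 1.5-fold, and 20.55% of its exon length overlaps an antisense gene.

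Adam12 and Adam19, the meltrins alpha and beta, moved in opposite directions. Adam12, which marks activated fibroblasts in several tissues, was at 52.0, 50.7 and 51.9 CPM in WT-labelled libraries and at 78.4, 73.8 and 81.0 CPM in KO-labelled libraries (log2 fold change 0.59 ± 0.04 SE, adjusted p = 6.86e-08). It stood at the fold limit, and its log2 fold change was 0.58 without the second WT library, 0.58 without the first KO library and 0.56 without the third KO library, each of which ended the call. Adam19, which processes neuregulin, was at 78.0, 69.4 and 70.5 CPM in WT-labelled libraries and at 44.1, 41.9 and 42.3 CPM in KO-labelled libraries (log2 fold change -0.76 ± 0.05 SE, adjusted p = 2.66e-08). Every KO library was lower, and the call did not change when any library was left out. Adam33, the closest relative of Adam12 and Adam19 here, fell from low levels of 4.02, 4.30 and 4.79 CPM to 2.65, 2.83 and 2.97 CPM (log2 fold change -0.63 ± 0.11 SE, adjusted p = 3.68e-04). It was no longer called without the third WT library, at a log2 fold change of -0.57. Adam8, found mainly on leukocytes, had 77, 81 and 98 counts in WT-labelled libraries and 84, 103 and 97 counts in KO-labelled libraries, and its groups overlapped.

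ADAM11, ADAM22 and ADAM23 lack an active site and serve as receptors, best known as partners of LGI proteins in the nervous system. Adam22 (ENSMUSG00000040537.17, chr5:8072352-8368160) had the largest change of any ADAM. It was at 1.595, 2.81 and 2.10 CPM in WT-labelled libraries and at 20.1, 17.9 and 22.9 CPM in KO-labelled libraries, or 50, 94 and 67 counts in WT-labelled libraries and 710, 744 and 756 counts in KO-labelled libraries. Every KO library stood far above every WT library, with a 9.25-fold difference (log2 fold change 3.21 ± 0.14 SE, adjusted p = 1.37e-09). Adam11 was at 4.02, 2.93 and 3.73 CPM in WT-labelled libraries and at 5.45, 5.35 and 5.91 CPM in KO-labelled libraries (log2 fold change 0.65 ± 0.12 SE, adjusted p = 4.39e-04), and was not called without the second WT library (log2 fold change 0.52). In contrast, Adam23 overlapped between the groups, at 45.6, 49.0 and 48.1 CPM in WT-labelled libraries and at 48.0, 44.9 and 46.3 CPM in KO-labelled libraries (adjusted p = 0.477).

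A further pair of ADAM genes is known from the testis. Adam5 had 6, 3 and 5 counts in WT-labelled libraries and 13, 21 and 19 counts in KO-labelled libraries (log2 fold change 1.71 ± 0.38 SE, adjusted p = 0.00173), so that its rise concerns very few reads. It lies 125 kb from Adam9. Adam1a had 73, 70 and 100 counts in WT-labelled libraries and 124, 108 and 132 counts in KO-labelled libraries and overlapping groups (adjusted p = 0.0771). Without the third WT library Adam1a would have been called, at a log2 fold change of 0.59. Of its annotated exon length 63.7% is shared with Gm42878 and 24.0% with Mapkapk5 on the same strand, so its counts are uncertain.

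The ADAMTS enzymes that cleave aggrecan and versican included the strongest rise among abundant proteases. Adamts5 (ENSMUSG00000022894.6, chr16:85856173-85901828), the main aggrecanase in mouse cartilage, was at 67.1, 62.0 and 61.3 CPM in WT-labelled libraries and at 266, 293 and 312 CPM in KO-labelled libraries. The lowest KO library was far above the highest WT library, with a 4.57-fold change (log2 fold change 2.19 ± 0.06 SE, adjusted p = 5.93e-12). It made up 3.74% of the summed ADAMTS level under WT and 14.8% under KO. Its neighbor Adamts1, 53.1 kb away on chromosome 16 (chr16:85793827-85803113), was at 145, 149 and 139 CPM in WT-labelled libraries and at 200.3, 228 and 238 CPM in KO-labelled libraries (log2 fold change 0.62 ± 0.05 SE, adjusted p = 6.31e-07). Without the third KO library Adamts1 had a log2 fold change of 0.57 and was not called.

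The other members of this group were mixed. Adamts9 was at 183, 202 and 206 CPM in WT-labelled libraries and at 227, 243 and 258 CPM in KO-labelled libraries, higher in every KO library but under 1.5-fold (log2 fold change 0.30 ± 0.05 SE, adjusted p = 2.11e-04). Adamts4 was at 15.5, 13.5 and 13.6 CPM in WT-labelled libraries and at 12.7, 13.4 and 12.7 CPM in KO-labelled libraries, with an adjusted p of 0.115. Adamts15 fell, with 31, 52 and 35 counts in WT-labelled libraries and 13, 23 and 15 counts in KO-labelled libraries (log2 fold change -1.39 ± 0.26 SE, adjusted p = 4.70e-04). The counts of Adamts15 were low but did not overlap between groups. Versican itself (Vcan), the proteoglycan that these enzymes cut, fell from 243, 249.9 and 262 CPM in WT-labelled libraries to 122, 108 and 124 CPM in KO-labelled libraries (log2 fold change -1.10 ± 0.05 SE, adjusted p = 1.13e-09).

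Adamts2, Adamts3 and Adamts14 encode the enzymes that remove the amino-terminal propeptide of fibrillar procollagens. Adamts2, the most abundant ADAMTS gene, showed no detectable difference, at 668, 658 and 669 CPM in WT-labelled libraries and at 668, 646 and 675 CPM in KO-labelled libraries (adjusted p = 0.906). Both low members were higher in the libraries labelled KO. Adamts3 had 0 counts in each WT library and 19, 18 and 15 in the KO libraries (adjusted p = 2.43e-05). Against a floor of 3 counts per library it was at least 5.10-fold higher. Adamts14 had 29, 35 and 41 counts in WT-labelled libraries and 64, 71 and 51 counts in KO-labelled libraries (log2 fold change 0.64 ± 0.18 SE, adjusted p = 0.00742), and was not called without the first WT library (log2 fold change 0.54) or without the first KO library (0.58). Since Adamts2 was at 71.2 and 71.0 CPM per kb and Adamts14 at 0.209 and 0.324 under WT and KO, Adamts2 made up almost the whole of the group's level in both.

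Most of the remaining ADAMTS genes were lower in the libraries labelled KO. Adamts13 (chr2:26973416-27009628), the protease of von Willebrand factor, was at 9.03, 9.40 and 11.8 CPM in WT-labelled libraries and at 2.40, 1.78 and 2.82 CPM in KO-labelled libraries (log2 fold change -2.13 ± 0.15 SE, adjusted p = 9.74e-08). It had the largest fall called in the set, and its groups were well apart. Adamts7 (chr9:90163069-90208071), which cleaves cartilage oligomeric matrix protein, was at 42.3, 38.8 and 40.4 CPM in WT-labelled libraries and at 13.9, 13.2 and 13.6 CPM in KO-labelled libraries. The fall was 2.99-fold with almost no spread within groups (log2 fold change -1.58 ± 0.05 SE, adjusted p = 4.72e-11). Adamts10, which binds fibrillin, was at 168, 179 and 174 CPM in WT-labelled libraries and at 106, 111 and 112 CPM in KO-labelled libraries (log2 fold change -0.67 ± 0.04 SE, adjusted p = 6.25e-09). Adamts6, its closest relative, was at 42.8, 45.1 and 45.4 CPM in WT-labelled libraries and at 31.1, 31.2 and 32.02 CPM in KO-labelled libraries, lower in every KO library by less than 1.5-fold (log2 fold change -0.50 ± 0.04 SE, adjusted p = 3.54e-07).

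Adamts12, which shares a domain structure and a substrate with Adamts7, went the other way. It was at 17.2, 15.3 and 16.3 CPM in WT-labelled libraries and at 21.7, 24.4 and 26.7 CPM in KO-labelled libraries (log2 fold change 0.58 ± 0.08 SE, adjusted p = 2.67e-05). Its change lay just under the limit, which it passed without the first WT library (log2 fold change 0.62) or the first KO library (0.65).

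The ADAMTSL genes included the largest difference of the set among genes with counts in every library. Adamtsl3 (ENSMUSG00000070469.12, chr7:82335694-82614450), a secreted matrix protein without protease activity, was at 3.41, 3.55 and 3.48 CPM in WT-labelled libraries and at 70.9, 74.2 and 77.9 CPM in KO-labelled libraries, or 107, 119 and 111 counts in WT-labelled libraries and 2512, 3092 and 2571 counts in KO-labelled libraries. The groups were separated by 21.3-fold with little spread in either (log2 fold change 4.41 ± 0.06 SE, adjusted p = 2.64e-14). Its share of the summed ADAMTSL level was 4.40% under WT and 36.3% under KO. The promoter window of Adamtsl3 (chr7:82335444-82335743, plus strand, RefSeq, GRCm38.p6) is shown because the gene had that largest change, with GC boxes (GGGCGG, or CCGCCC on the other strand) in capitals.
Adamtsl3: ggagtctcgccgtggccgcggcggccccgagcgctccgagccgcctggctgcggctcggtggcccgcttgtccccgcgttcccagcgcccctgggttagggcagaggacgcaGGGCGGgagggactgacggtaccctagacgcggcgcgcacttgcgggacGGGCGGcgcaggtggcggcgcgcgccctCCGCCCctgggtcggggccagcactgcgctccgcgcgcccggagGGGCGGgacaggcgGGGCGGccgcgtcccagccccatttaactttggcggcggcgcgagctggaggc
It held 5 GC boxes in a window of 78.7% GC, with no TATA box, AP-1 motif or GLI motif. At least 1 GC box was in 35.7% of all windows and in 22 of the 33 windows of these genes, those of called and uncalled genes alike.

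Adamtsl4, which binds fibrillin-1 and anchors the lens, was at 18.6, 20.6 and 20.2 CPM in WT-labelled libraries and at 35.8, 38.3 and 38.5 CPM in KO-labelled libraries (log2 fold change 0.92 ± 0.05 SE, adjusted p = 1.11e-08). Adamtsl5 was at 14.6, 15.2 and 12.4 CPM in WT-labelled libraries and at 23.5, 25.2 and 26.4 CPM in KO-labelled libraries (log2 fold change 0.83 ± 0.07 SE, adjusted p = 7.33e-07). Every KO library exceeded every WT library for both. Adamtsl1 was at 26.1, 26.3 and 26.9 CPM in WT-labelled libraries and at 31.1, 32.9 and 37.2 CPM in KO-labelled libraries, also with no overlap, but under 1.5-fold (log2 fold change 0.35 ± 0.06 SE, adjusted p = 2.80e-04).

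**Figure D4:**
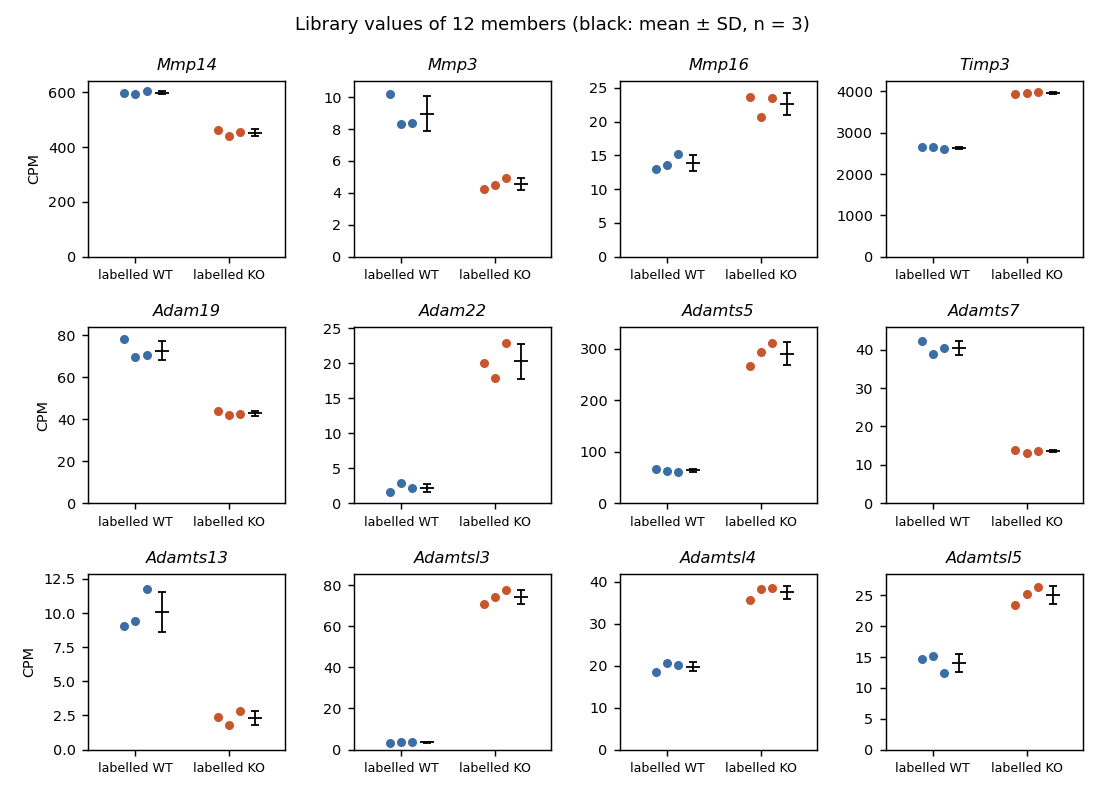
CPM in each library (points; blue, labelled WT; red, labelled KO) of 12 genes, with the mean and SD of each group in black (n = 3) and an axis from 0 in each panel. The points of the groups do not overlap in any panel. Mmp14 is 1.32-fold lower and Timp3 1.51-fold higher, whereas Adamtsl3, Adam22 and Adamts5 are several times higher and Adamts7 and Adamts13 several times lower under KO.

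Genes that act with these proteases were listed by role, and 31 of the 48 listed were found by symbol. Rows without a symbol were not searched for the others. All 31 were tested. Only 6 of them were called (19.4%, near the 17.7% of all genes), 5 higher and 1 lower, the lower being Vcan. Pcsk6, the proprotein convertase PACE4 that activates ADAMTS4 and ADAMTS5 precursors, was at 103, 110.3 and 115 CPM in WT-labelled libraries and at 312, 335 and 343 CPM in KO-labelled libraries. It was higher in every KO library (log2 fold change 1.59 ± 0.05 SE, adjusted p = 1.92e-11), whereas furin (Furin) was at 137, 133 and 131 CPM in WT-labelled libraries and at 119, 116 and 117 CPM in KO-labelled libraries and slightly lower (log2 fold change -0.19 ± 0.03 SE, adjusted p = 1.66e-04). Spock2, a testican proteoglycan that acts on MMP control, had 28, 28 and 35 counts in WT-labelled libraries and 118, 96 and 101 counts in KO-labelled libraries (log2 fold change 1.61 ± 0.19 SE, adjusted p = 1.26e-05).

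The astacin Tll1, a procollagen C-proteinase, had 54, 45 and 25 counts in WT-labelled libraries and 421, 397 and 365 counts in KO-labelled libraries (log2 fold change 3.07 ± 0.17 SE, adjusted p = 1.13e-08). Pcolce2, an enhancer of these C-proteinases, had 24, 4 and 3 counts in WT-labelled libraries and 106, 110 and 51 counts in KO-labelled libraries (log2 fold change 2.90 ± 0.45 SE, adjusted p = 1.28e-04), with the first WT library set apart from the other two. Without it the log2 fold change of Pcolce2 was 4.45. Both genes were minor beside Bmp1, at 460.4, 451 and 444 CPM in WT-labelled libraries and at 406, 403 and 399 CPM in KO-labelled libraries, and Pcolce, at 1013, 1006 and 993 CPM in WT-labelled libraries and at 766, 764 and 740.1 CPM in KO-labelled libraries, which were lower by less than 1.5-fold.

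None of the 7 regulators of ADAM10 and ADAM17 (tetraspanins, iRhoms and Frmd8) was called. On the adjusted p alone 6 passed, all lower, beside 58.7% of all genes that passed and 28.8% that were lower, with Rhbdf2 the lowest at a log2 fold change of -0.34. Among 13 substrates that ADAMs release, 1 was called (7.69%, beside 17.7% of all genes). On the adjusted p alone 10 passed (76.9%, beside 58.7% of all genes), 6 higher and 4 lower, beside 29.9% and 28.8%. The largest changes short of 1.5-fold were those of Il6ra (log2 fold change -0.58), Tgfa (-0.57), Tnfrsf1b (-0.53) and Btc (0.53). Notch1 was the gene called, with 123, 160 and 169 counts in WT-labelled libraries and 292, 348 and 322 counts in KO-labelled libraries (log2 fold change 0.91 ± 0.11 SE, adjusted p = 1.61e-05). Reck, a membrane-anchored MMP inhibitor, was at 30.6, 33.7 and 33.1 CPM in WT-labelled libraries and at 25.8, 26.6 and 28.8 CPM in KO-labelled libraries (log2 fold change -0.27 ± 0.05 SE, adjusted p = 9.39e-04).

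**Figure D5:**
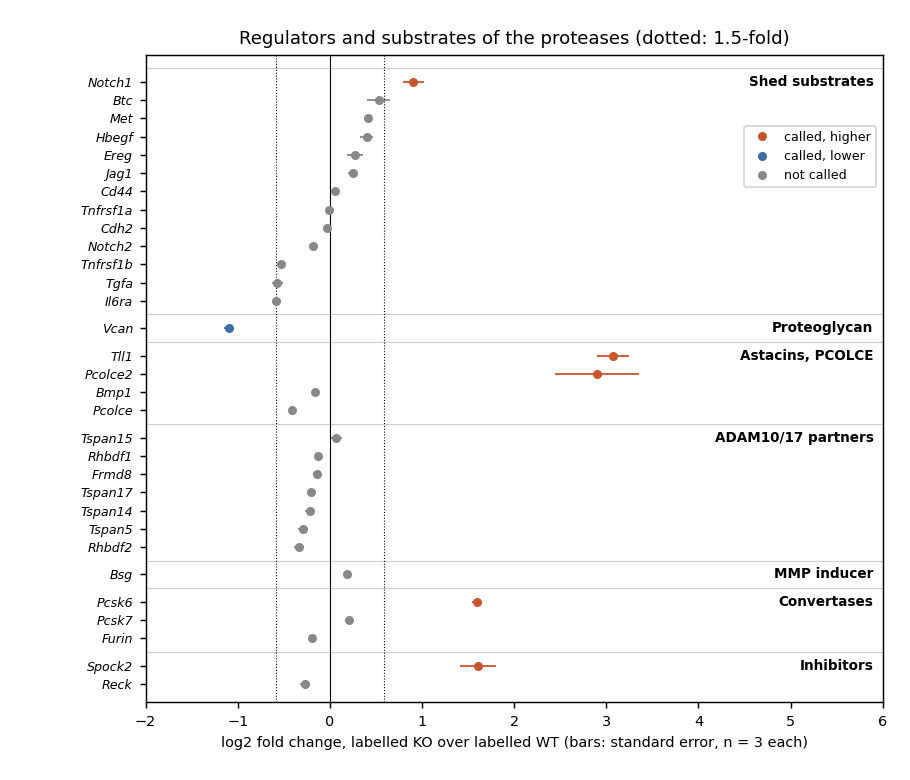
Log2 fold change (labelled KO over labelled WT, x axis, bars for the standard error, dotted lines at 1.5-fold) of the 31 regulators, activators and substrates, grouped by role. Tll1, Pcolce2, Spock2, Pcsk6 and Notch1 lie to the right of the upper line and Vcan lies to the left of the lower line, while the ADAM10 and ADAM17 partners lie close to 0.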

How the data were processed

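Groups were taken from the sample labels. The members, gene lists and tests were chosen with earlier results of these data known. The authors deposited raw counts of reads per gene, and log2 CPM values from limma's voom (normalization factors 0.988 to 1.02). Per the submitters' processing notes STAR 2.7.2b, featureCounts and GRCm38.p6 were used, and use of strand was not given in the sources used here. Low genes had been removed before deposit.

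Counts were tested with edgeR 4.0.16 (R 4.3.3) with TMM scaling, filterByExpr and the quasi-likelihood F test, 3 libraries against 3, and Benjamini-Hochberg adjustment over 14289 genes. The script was tested on simulated data. Calls needed an adjusted p under 0.05 and 1.5-fold. SEs came from the fold change and its F statistic, CPM from TMM-scaled totals and exon lengths and positions from GENCODE M21 (14822 of 14831 identifiers matched). Libraries of a group differed by more than counting noise (chi-square per degree of freedom 2.47 to 7.53) and were all kept. A floor of 3 counts equals 0.0720 to 0.0957 CPM and, like all values near it, covers counting error only. Named with values were all called members, all TIMPs, the 3 highest genes of each subfamily, Mmp2, Mmp3, Mmp9, Mmp13, Mmp14, Adam10, Adam17, members too low to test, called partners, Gli2 and Gli3. The other members, Gli1, Syn3, the uncalled partners and the individual cell type markers were named after their values were seen. Alternatives were other scalings, filters, fold limits and tools (DESeq2 1.42.0, limma 3.58.1) and leaving out each library.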

Additional observations from a re-analysis of the deposited data

How the results depend on the processing

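Of the 20 called genes 13 were called in every setting with the 1.5-fold limit that tested them (Adam5 and Adamts3 did not reach 10 counts in every library). Scaling by RLE, by upper quartile or by totals, 2 other filters, DESeq2, limma-voom and limma on the deposited log2 values kept every count of calls within 1.5 times, although upper-quartile scaling moved the higher share of calls over all genes from 65.6% to 70.7%. The fold limit mattered most. With no fold limit 32 genes were called (21 higher, 11 lower; 8391 of all 14289 genes), with 6 MMP, 3 TIMP and 27 partner genes. With a limit of 2-fold 8 were called (5 higher, 3 lower; 1456 of all genes), with 0 MMP, 0 TIMP, 2 ADAM, 5 ADAMTS and 1 ADAMTSL genes. With edgeR's glmTreat against 1.5-fold 13 were called (7 higher; 1704 of all genes), with 1 MMP, 0 TIMP and 3 ADAM genes. Leaving out a library gave 18 to 21 called genes (11 to 14 higher, 6 to 7 lower), 2 to 3 MMP, 0 to 1 TIMP, 4 to 7 ADAM, 7 to 8 ADAMTS, 3 ADAMTSL and 6 to 8 partner genes. Adding the 3 rows without a symbol, an alternative chosen after seeing the data, gave 22. Apart from the genes near the fold limit named above, Adam33 was not called with upper-quartile scaling (-0.58), where Adam9 (0.62) and Adamts12 (0.63) were called, as they were with total counts (0.60 and 0.61), and Adamts12 was called at the filter of 10 counts in every library (0.59).

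Genes that changed sign had log2 fold changes near 0 or few counts, and none of them was called in these settings. With upper-quartile scaling the values were 0.034 for Mmp11, 0.0016 for Mmp23, 0.022 for Adam8, 0.017 for Adam10, 0.020 for Adam23 and 0.052 for Adamts2. With total counts they were 0.011 for Mmp11, 6.86e-05 for Adam8 and 0.030 for Adamts2, and with at least 10 counts in every library 0.0029 for Adamts2. Mmp10 was at 0.057 with limma-voom and 0.041 on the deposited log2 values. Leaving out each library in turn gave -0.54 to 0.67 for Mmp10, -0.17 to 0.098 for Mmp15, -0.21 to 0.061 for Mmp23, -0.12 to 0.081 for Adam8 and -0.016 to 0.012 for Adamts2. The cause of these shifts was not tested. No paired analysis was possible because the labels number the libraries and give no replicate number that both groups share. Depth limits what can be said of Mmp2, Mmp9, Mmp10, Mmp27, Adam5, Adamts3, Adamts15 and Adamts16, which have few counts.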
